A study of Mus musculus with 6 samples.

Results

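The secreted and membrane proteins at the start of the Wnt pathway were followed in ageing skeletal muscle. They were taken from the arrays by symbol, as every gene probe whose symbol begins with Wnt, Fzd, Sfrp, Dkk or Rspo and a number, which gave 48 probes for 41 genes out of 36710 genes and unnamed identifiers on the array. These were 19 Wnt ligands, 10 Frizzled receptors, 4 R-spondins, 4 secreted Frizzled-related proteins and 4 Dickkopf proteins. Total RNA came from the gastrocnemius, a fast muscle of the calf, of male C57BL/6J mice, for which neither labels nor methods name an engineered allele or a treatment. The 3 young mice were 13 weeks old and the 3 aged mice were 26 months old, and the RNA of each mouse was hybridized to its own single-colour array. A bulk extract of muscle holds fibres together with connective tissue, vessels, nerve and immune cells, and fewer cells of a type cannot be told apart from less RNA per cell.

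Wnt proteins are secreted lipid-modified ligands that bind Frizzled receptors, and with the co-receptors Lrp5 and Lrp6 they stop the destruction of beta-catenin, which then acts with TCF/LEF factors in the nucleus. Other Wnts act without beta-catenin, through cell polarity or calcium. R-spondins bind Lgr receptors and raise the amount of Frizzled at the cell surface, secreted Frizzled-related proteins bind Wnts, and Dickkopf proteins block the co-receptors. In muscle the pathway is known for its roles in myogenesis, in satellite cells and at the neuromuscular junction.

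A value is the log2 of the processed spot signal after the 75th percentile of its array was subtracted, so 0 is the 75th percentile. Values of single mice are given in the order of mice 1, 2 and 3. Detected means that the scanner software called the spot well above background. Between 48.7% and 53.8% of probes were detected per array and none was saturated. The 6 arrays lay on 1 slide and were read in 1 scan. Row 1 of the slide held the 3 young mice and aged mouse 1, and row 2 held aged mice 2 and 3. Negative controls averaged a net signal of 61.3 for aged mouse 1 and of 51.9 to 55.1 for the other mice. Of 12 muscle fibre markers 11 passed the filter and were detected on all 6 arrays, among them Acta1, Ckm and Myh4. The other, Tnni2, had no probe matched to its symbol that passed.

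Of the 41 genes, 25 had a probe detected on at least 3 arrays and were tested, of which 23 were detected on all 6. Those tested were 9 Wnts, 8 Frizzleds, 2 R-spondins, 4 secreted Frizzled-related proteins and 2 Dickkopfs. The other 16 were Wnt2, Wnt2b, Wnt3, Wnt3a, Wnt7a, Wnt7b, Wnt8a, Wnt8b, Wnt9b, Wnt10b, Fzd3, Fzd5, Rspo2, Rspo4, Dkk1 and Dkk4. For 14 of these no array gave a spot well above background, so the arrays set only a bound for them in both groups. The ages were compared in limma with a two-sided test and Benjamini-Hochberg adjustment over all 20900 genes tested. One gene, Wnt16, fell past an adjusted p of 0.05, 1 of 25 members, where 0.254% of all genes passed in either direction and 0.0574% as lower. At an unadjusted p under 0.05 there were 6 members (24%, against 14.4% of all genes), 5 of them lower in aged mice (8.36% of all genes) and 1 higher (6.07%). The same 6 were those whose aged and young values did not overlap (24%, against 21.8% of all genes), with 5 lower in aged mice (13.9% of all genes) and 1 higher (7.92%). The mean was lower in aged mice for 19 of the 25 (76%, against 56.9% of all genes). The median log2 fold change was -0.21 over the members and -0.06 over all genes. With 1 mouse left out the median of the members ranged from -0.43 (without aged mouse 1) to -0.13 (without young mouse 3). With the slide row as a block, where aged mouse 1 alone is compared with the young mice, it was -0.06, beside -0.07 over all genes.

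**Figure D1:**
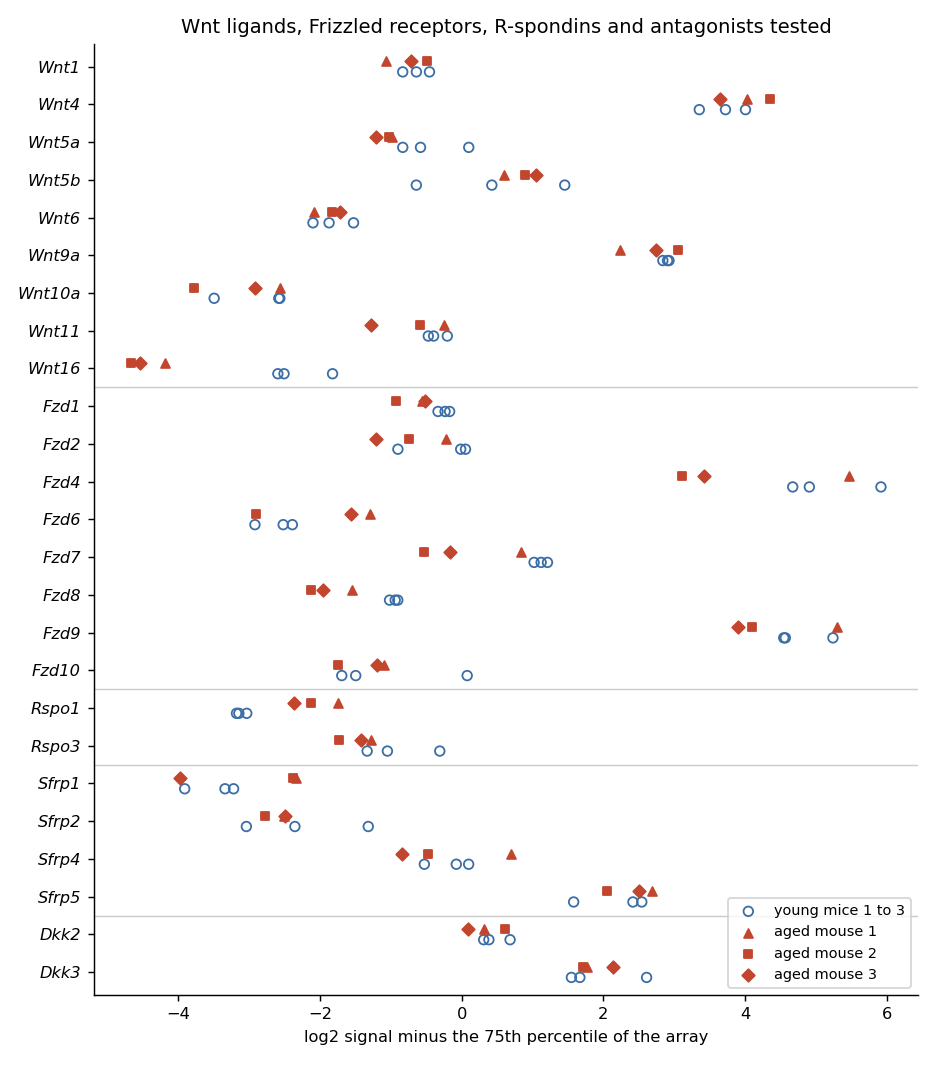
Log2 signal minus the 75th percentile of the array (x axis) for each of the 25 genes tested (y axis, grouped by family), with open circles for the 3 young mice and filled marks for aged mice 1, 2 and 3. Wnt16 lay at -2.59 or higher in every young mouse and at -4.19 or lower in every aged mouse, and Rspo1 was the gene with all aged mice above all young mice.

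The promoters of the members whose groups did not overlap are shown because these genes carry the differences described here. RefSeq transcription starts of GRCm38.p6 gave 30 promoters for 27 of the 41 genes, among them Wnt16, Rspo1, Fzd7 and Fzd1. Wnt5a and Fzd8 were not matched. The 250 bases before the start are printed 5′ to 3′ on the strand of the gene, for Wnt16 at chr6:22287977-22288226 on the plus strand, for Rspo1 at chr4:124986180-124986429 on the plus strand, for Fzd7 at chr1:59481897-59482146 on the plus strand and for Fzd1 at chr5:4758217-4758466 on the minus strand. Capitals mark a match to the TCF/LEF core.

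Wnt16: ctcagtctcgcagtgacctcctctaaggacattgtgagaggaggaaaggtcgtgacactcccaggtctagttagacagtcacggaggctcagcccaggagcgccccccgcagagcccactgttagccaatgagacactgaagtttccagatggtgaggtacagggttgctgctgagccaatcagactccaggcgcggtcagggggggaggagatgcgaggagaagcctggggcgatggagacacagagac

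Rspo1: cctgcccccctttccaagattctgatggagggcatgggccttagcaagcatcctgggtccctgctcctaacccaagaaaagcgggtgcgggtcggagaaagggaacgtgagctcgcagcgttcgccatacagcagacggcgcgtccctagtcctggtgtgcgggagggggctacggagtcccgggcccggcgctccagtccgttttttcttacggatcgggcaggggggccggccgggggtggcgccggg

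Fzd7: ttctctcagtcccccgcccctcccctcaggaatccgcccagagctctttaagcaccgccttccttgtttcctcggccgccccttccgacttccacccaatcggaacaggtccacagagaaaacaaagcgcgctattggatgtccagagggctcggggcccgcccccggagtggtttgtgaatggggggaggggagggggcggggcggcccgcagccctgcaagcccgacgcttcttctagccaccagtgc

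Fzd1: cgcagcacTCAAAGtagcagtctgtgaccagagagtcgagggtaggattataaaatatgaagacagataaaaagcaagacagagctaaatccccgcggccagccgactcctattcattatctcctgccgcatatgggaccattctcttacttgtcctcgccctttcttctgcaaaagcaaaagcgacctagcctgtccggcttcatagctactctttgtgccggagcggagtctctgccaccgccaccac

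These windows were searched on both strands for 3 motifs. The TCF/LEF core is CTTTGA, which reads TCAAAG in the printed window of Fzd1. The E-box bound by myogenic factors was searched as CAGCTG. The Runx core was searched as TGTGGT. The 4 printed windows held 1 match in all, a TCF/LEF core 242 bases before the start of Fzd1. Over the 30 promoters of members the TCF/LEF core was found in 4 (Dkk1, Fzd1, Wnt11 and Wnt5b), the E-box in 2 (Fzd10 and Wnt9a) and the Runx core in 2 (Dkk1 and Sfrp5). Of all 32851 promoters of the same length 13.8%, 13.0% and 14.0% held them. The GC content was 59.2% for Wnt16, 66.8% for Rspo1, 65.2% for Fzd7 and 51.2% for Fzd1, beside a median of 68.8% over the promoters of members and 52.4% over all promoters.

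Among the ligands, 1 of the 2 Wnt16 probes was lower in every aged mouse and detected in none of them. Wnt16 (NM_053116) encodes a Wnt best known from bone, where it restrains osteoclasts. The log2 signal of the brighter probe, which represents the gene, was -2.59, -1.82 and -2.51 in the young and -4.19, -4.66 and -4.54 in the aged mice. All young arrays detected this probe and no aged array did, so its level in aged mice was not measured exactly. Young mice averaged -2.31 ± 0.42 and aged mice -4.47 ± 0.25 (SD, n = 3 each), which gave a log2 fold change of -2.16 with a standard error of 0.26 and an adjusted p of 0.0374 in limma. With the lowest detected signal of each aged array in place of its own value, the probe was 3.02-fold lower in aged mice. This is not a strict minimum, since an undetected probe can lie above that signal. Wnt10b did so in aged mouse 2, at -3.63 against -3.83. A second, dimmer probe of the gene read -3.55, -3.32 and -4.06 in young and -3.84, -3.12 and -5.26 in aged mice, detected in 2 young and 1 aged mouse, and its groups overlapped. With the mean of both probes the log2 fold change was -1.29 (adjusted p = 0.182 from limma), and with normexp background correction it was -0.60 (adjusted p = 0.147). The call also ended without a filter on dim probes, with a mean-variance trend and with the slide row as a block (adjusted p = 0.111, 0.0507 and 0.147 from limma), and leaving out any mouse other than aged mouse 1 ended it, with adjusted p from 0.100 to 0.157 and log2 fold changes from -2.30 to -1.92.

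Wnt5a (NM_009524), a ligand that mostly signals without beta-catenin, was -0.83, -0.58 and 0.10 in the young and -0.98, -1.02 and -1.21 in the aged mice. The groups did not overlap, but the gap between young mouse 1 and aged mouse 1 was small beside the spread of the young mice. The log2 fold change was -0.64 with a standard error of 0.26 and an adjusted p of 0.337 in limma, that is, 0.644-fold, and -0.37 without young mouse 3. The other 7 Wnts tested had overlapping groups, 5 with a lower and 2 with a higher mean in aged mice, between -0.35 and 0.43, with adjusted p from 0.587 to 0.940. Wnt4, a ligand also expressed in developing muscle, was 3.72, 3.35 and 4.01 in young and 4.03, 4.35 and 3.65 in aged mice. Its second probe differed in the same direction, by 0.13 against 0.32. Wnt11, which acts on cell polarity and at the neuromuscular junction, lay between -0.47 and -0.20 in young mice and between -1.28 and -0.25 in aged mice. Wnt9a was nearly constant in young mice, from 2.84 to 2.93, whereas Wnt5b ranged from -0.64 to 1.46 there, and both groups overlapped for each gene.

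Of the 6 members without overlap, 3 were Frizzled receptors. Of the 8 Frizzleds tested, 7 had a lower mean in aged mice and 1 (Fzd6) a higher one, with a median log2 fold change of -0.43. In Fzd1, Fzd7 and Fzd8 the aged mice all lay under the lowest young mouse, which was 37.5% of the family beside 13.9% of all genes in that direction. None passed the adjusted threshold. No Frizzled gene turned its direction under the 3 other scalings between arrays, but with the slide row as a block Fzd2, Fzd4 and Fzd9 did, which left 4 of 8 lower, and without young mouse 3 Fzd10 did (0.25).

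Fzd8 (NM_008058), a receptor of Wnts that use Lrp6, was -0.94, -0.90 and -1.02 in the young and -1.55, -2.12 and -1.96 in the aged mice. The young mice lay close together and every aged mouse lay clearly below them. Its log2 fold change was -0.93 with a standard error of 0.19 and an adjusted p of 0.141 in limma, that is, 0.526-fold. Against young mice of the same slide row, aged mouse 1 alone gave -0.60.

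Fzd7 (NM_008057), a receptor known from satellite cells as a partner of Wnt7a, was 1.21, 1.12 and 1.02 in the young and 0.85, -0.54 and -0.17 in the aged mice. Aged mouse 1 was just below the young mice and the others were far below. The log2 fold change was -1.07 with a standard error of 0.35 and an adjusted p of 0.260 in limma, that is, 0.476-fold. It was -1.47 without aged mouse 1, where it passed the threshold (adjusted p = 0.0395), and -0.27 with the slide row as a block, where aged mouse 1 alone is compared. The second probe of Fzd7 read -2.86, -2.46 and -3.25 in young and -3.23, -4.91 and -4.90 in aged mice, with aged mouse 1 inside the range of the young mice and aged mice 2 and 3 not detected.

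Fzd1 (NM_021457), a broadly expressed receptor of the beta-catenin arm, was -0.23, -0.33 and -0.17 in the young and -0.56, -0.92 and -0.52 in the aged mice. The difference was smaller than for Fzd7 and Fzd8, but the 3 young mice lay close together. The log2 fold change was -0.42 with a standard error of 0.17 and an adjusted p of 0.343 in limma, that is, 0.748-fold.

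The other 5 Frizzleds had overlapping groups, with log2 fold changes from -1.17 to 0.69 and adjusted p from 0.456 to 0.793. Fzd4, the receptor of norrin in vessels as well as of Wnts, and Fzd9 are named here because of how the aged mice split, which was seen in their values. Fzd4 was 4.91, 5.92 and 4.67 in the young and 5.47, 3.11 and 3.42 in the aged mice, which gave a log2 fold change of -1.17 with a standard error of 0.65 and an adjusted p of 0.456 in limma. Fzd9 was 4.55, 4.57 and 5.24 in young mice and 5.30, 4.10 and 3.90 in aged mice. In both genes aged mice 2 and 3 were below all young mice and aged mouse 1 was not. This pattern was seen in 2 of 8 Frizzleds (25%), 4 of 25 members (16%) and 1968 of the 20900 genes (9.42%). Taken against the young mean, the 8 Frizzleds had a median difference of 0.00 for aged mouse 1, -0.70 for mouse 2 and -0.91 for mouse 3. Aged mice 2 and 3 are also those in row 2 of the slide, and with the row as a block Fzd4 was 0.31, Fzd9 0.52 and Fzd2 0.06. Row and animal cannot be told apart for these genes.

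**Figure D2:**
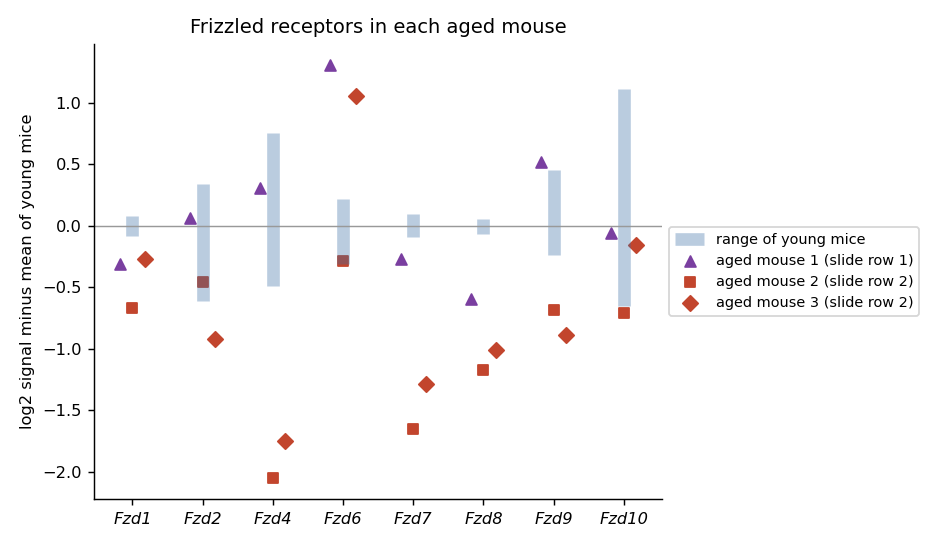
Log2 signal of the 8 Frizzled receptors tested (x axis) in each aged mouse minus the mean of the young mice (y axis), with the blue bar spanning the range of the young mice. Aged mouse 1, in the slide row of the young mice, was below that range for Fzd1, Fzd7 and Fzd8, and aged mice 2 and 3 were below it for Fzd4 and Fzd9 too.

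The R-spondins held the member whose aged values all lay above the young values, though it did not pass the adjusted threshold. Rspo1 (NM_138683), which amplifies Wnt signals through Lgr receptors, was -3.18, -3.03 and -3.14 in the young and -1.74, -2.12 and -2.36 in the aged mice. The young mice lay close together and every aged mouse was above them, with detected spots on all 6 arrays. Young mice averaged -3.12 ± 0.08 and aged mice -2.07 ± 0.31 (SD, n = 3 each), which gave a log2 fold change of 1.05 with a standard error of 0.20 and an adjusted p of 0.125 in limma, a 2.06-fold higher level. It was 1.38 with the slide row as a block and 0.39 with normexp background correction. Rspo3, a family member known from endothelial cells, was -1.33, -1.05 and -0.31 in young and -1.28, -1.72 and -1.42 in aged mice, and its log2 fold change was -0.58 (adjusted p = 0.414 from limma), with overlapping groups.

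None of the 6 secreted antagonists tested separated the groups. The 4 secreted Frizzled-related proteins had log2 fold changes from -0.35 (Sfrp2) to 0.59 (Sfrp1), with adjusted p from 0.580 to 0.968, and Sfrp1 was detected in only 2 young and 2 aged mice. Sfrp4 spread from -0.84 to 0.69 among the aged mice alone, with aged mouse 1 highest. Sfrp2 spread from -3.04 to -1.32 among the young mice. Dkk2 and Dkk3 differed by -0.12 and -0.07 (adjusted p = 0.799 and 0.929 from limma). Dkk3 differs from the rest of its family in that its action on Wnt signalling is not settled.

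**Figure D3:**
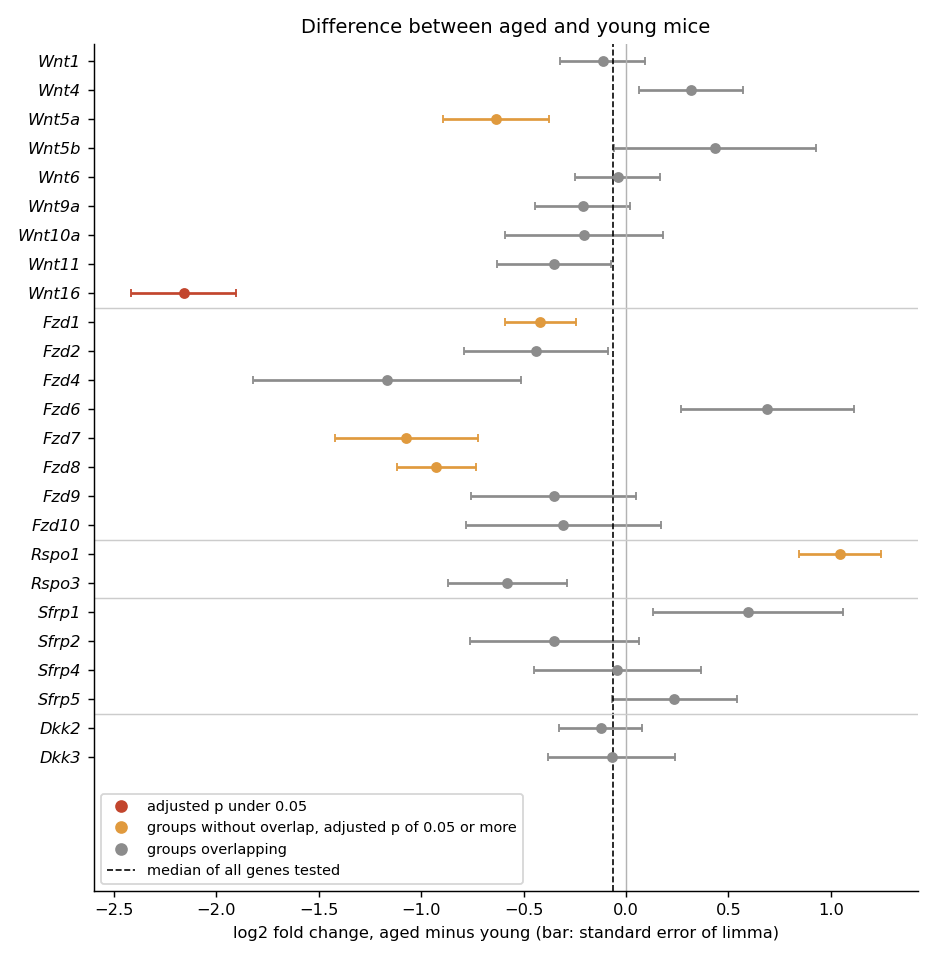
Log2 fold change of aged against young mice (x axis) with the standard error of limma as bars, for each of the 25 genes tested (y axis). The dashed line is the median of all genes tested, -0.06, and Wnt16 at -2.16 is the gene drawn as past the adjusted threshold.

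Genes of the pathway that the symbols above do not take were listed by role, 102 in all, of which 86 were tested. Of these 1 gene, Wif1, passed the adjusted threshold, 20 had an unadjusted p under 0.05 (23.3%, against 14.4% of all genes), 6 of them higher and 14 lower, and 25 had groups without overlap (29.1%, against 21.8% of all genes). Their median log2 fold change was -0.13, with 33 higher and 53 lower (61.6%, against 56.9% of all genes). The counts of lower genes per list given next stand beside the same 56.9%.

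The other secreted antagonists held the gene with the largest difference in these lists. Wif1 (NM_011915), Wnt inhibitory factor 1, binds Wnts outside the cell. It was -0.87, 0.36 and 0.08 in the young and -3.51, -4.41 and -4.91 in the aged mice. The groups were far apart. Of the aged mice only mouse 1 detected it, and the values of aged mice 2 and 3 lay under the lowest detected signal of their arrays (-3.83 and -4.00), so the fitted size is not exact. In the fit Wif1 fell by 4.14 on the log2 scale (standard error 0.44, adjusted p = 0.0280 from limma), by 3.37 with the slide row as a block (adjusted p = 0.0993) and by 2.04 with normexp background correction (adjusted p = 0.0362). Leaving out any mouse other than aged mouse 1 ended the call, with adjusted p from 0.0550 to 0.111, and so did testing without a filter on dim probes (0.0898). Frzb, the secreted Frizzled-related protein also called Sfrp3, was -1.36, -0.99 and -0.29 in young mice and -2.41, -3.72 and -2.45 in aged mice, so that the groups did not overlap. Its log2 fold change was -1.98 with a standard error of 0.43 and an adjusted p of 0.149 in limma. It was -0.85 with normexp, and 2 aged arrays detected it. Of the other 3 tested in this list of 10, Dkkl1 differed by -1.19 (adjusted p = 0.182), Igfbp4, which binds insulin-like growth factors and also Frizzled, by 1.27 (adjusted p = 0.153), and Tmem67 by -0.16. The median of the 5 was -1.19.

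Among 12 co-receptors and receptor modulators tested of 15, 7 were higher and 5 lower (median 0.02), and 3 had an unadjusted p under 0.05. These were Lgr4, a receptor of R-spondins, with a log2 fold change of -0.84, Lrp6 with -0.82 and Musk, the kinase of the neuromuscular junction, with 0.99 (adjusted p = 0.260, 0.265 and 0.269 from limma). Without aged mouse 3 Musk was 0.61 and Lgr4 -0.53, with the slide row as a block Musk was 0.54, Lgr4 -0.51 and Lrp6 -1.32, and with normexp Lgr4 was -0.28. Of 6 genes tested of 7 for secretion and extracellular handling of Wnts, 4 were lower, led by Gpc3 (-0.52) and Wls, the carrier of Wnts to the cell surface (-0.35), with Tinagl1 at -0.18. In the cytoplasm 11 of 17 were lower, with Csnk1e at -0.67, Gsk3b at -0.72 and Amer1 at -0.48. The probes of Gsk3b disagreed, since another 2 gave -0.92 and -0.01. Those of Csnk1e did too, as its other probes gave -0.77 and -0.14. The second probe gave -0.40 for Lrp6, -0.002 for Tinagl1 and -0.81 for Sox17. Ctnnb1, which encodes beta-catenin, differed by -0.13. Among 16 nuclear factors 10 were lower, and Sox17 (-0.83), Tcf7l1 (-0.45) and Pygo1 (-1.15) had the smallest p. Pygo1 passed the threshold without aged mouse 1 (log2 fold change -1.64, adjusted p = 0.0400). Among the 23 genes of the noncanonical arm 17 were lower, with Prickle3 at -0.92, Nfatc4 at -0.50 and Celsr3 at 2.33, the last detected in 1 young and 2 aged mice and at 0.58 with normexp. Amer1 was -0.28 without young mouse 3 and Pygo1 was -0.40 with normexp, detected on 1 aged array. With the slide row as a block Pygo1 was -0.17, Csnk1e -0.23, Gsk3b -0.34 and Wls -0.21. Tinagl1 ranged from -0.35 to -0.08 over the settings. Besides Wif1 no gene of these lists passed the adjusted threshold.

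Target genes of beta-catenin lay on both sides of 0. Of 18 listed, 12 were tested, 8 higher and 4 lower (median 0.21). Axin2, the target most often used as a readout of the pathway, Tcf7, Lgr5, Sp5, Fosl1 and Mmp7 were not tested. They had no probe matched to their symbol that passed the filter. Fst, which encodes follistatin, was 0.33, 0.26 and 0.54 in the young and 1.32, 1.42 and 1.85 in the aged mice, which gave a log2 fold change of 1.15 with a standard error of 0.20 and an adjusted p of 0.0974 in limma. Myc differed by 1.62 (adjusted p = 0.196) and Ccn4, a target first found through Wnt1, by -1.51 (adjusted p = 0.352). Ccn4 was detected on 1 aged array, and its difference was -0.85 without young mouse 3 and -0.55 with normexp. Myc was 1.02 with the slide row as a block. Each of these genes is also under other controls than beta-catenin.

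**Figure D4:**
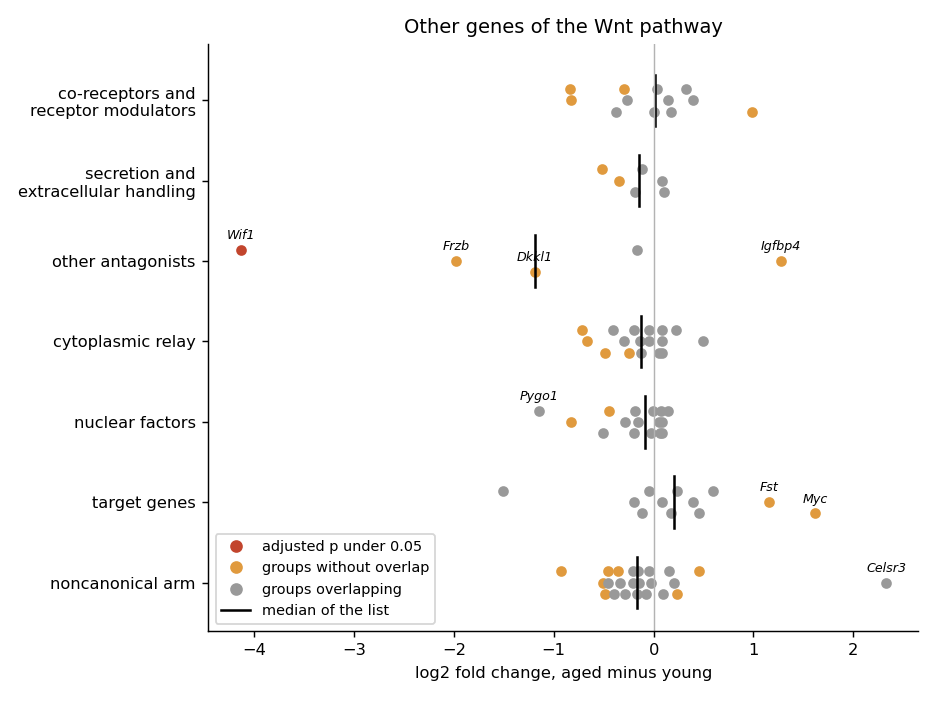
Log2 fold change of aged against young mice (x axis) for the 86 other genes of the pathway tested, each list in its own row (y axis) with a black line at its median, and a gene on 2 lists drawn in both. The list of other antagonists had its median at -1.19 and held Wif1 at -4.14, the gene drawn as past the adjusted threshold.

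Some markers of other cell types differed between the same groups, and their part in the results was not tested. The counts below at an unadjusted p under 0.05 in limma stand beside 14.4% of all genes, 8.36% lower and 6.07% higher in aged mice. Of 7 tendon cell genes all 7 had an unadjusted p under 0.05, 6 lower and 1 (Scx) higher, with a median of -1.42 and Kera past the adjusted threshold. Their summed signal was 71.2 to 78.7 times the 75th percentile in young and 47.2 to 84.3 times in aged mice. Of 10 fibroblast genes 3 (Col1a1, Col1a2 and Dcn) had an unadjusted p under 0.05, all lower, with sums of 502 to 560 in young and 285 to 393 in aged mice. Of 8 Schwann cell genes 5 were lower and 1 higher at that level, with sums of 24.5 to 44.6 and 24.9 to 41.7 and with Prx past the adjusted threshold. Of 9 genes of denervated fibres 8 were higher at that level, with sums of 17.0 to 20.5 and 43.0 to 107. Of the lists that bear on satellite cells, vessels, fat and immune cells, 1 of 6 satellite cell genes tested was lower at that level (sums of 17.3 to 20.0 and 22.0 to 30.3), 1 of 7 endothelial genes lower (34.6 to 40.2 and 24.3 to 35.7), 2 of 7 mural cell genes lower (156 to 178 and 170 to 179), 2 of 6 macrophage genes higher (37.8 to 45.2 and 40.5 to 42.6) and 0 of 5 adipocyte genes (141 to 151 and 107 to 143). The 11 muscle fibre genes had none at that level, with sums of 7048 to 8542 and 5909 to 7597. The share at that level was 16.7% for the satellite cell list and 14.3% for the endothelial list, near that of all genes. The sums add unlogged signals, so the brightest genes weigh most and they do not measure cell content. In the mural list Des was brightest and differed by 0.17, while 5 of 7 genes had a lower mean (median -0.40). In the satellite cell list Myod1 differed by 1.20, Pax7 by -0.02 and Calcr by -1.19, with 4 genes higher and 2 lower. The markers with no matched probe that passed the filter were Myf5, Cd163, Lep and Tnni2.

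The reported differences were then set beside 16 other ways of processing the arrays. No value of the 6 members and 21 pathway genes named by rule turned its direction (425 values in all). For genes whose groups did not overlap, leaving out 1 mouse or blocking by slide row could not turn it. The replicate block and the mean-variance trend leave the fold change as it was, so much of this was fixed in advance. Some members outside the rule did turn, such as Sfrp4 in 6 and Dkk3 in 3 of 16 alternatives. Wnt16 kept an adjusted p under 0.05 in 4 of the 15 alternatives that gave it a value, and Wif1 in 7 of 15.

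**Figure D5:**
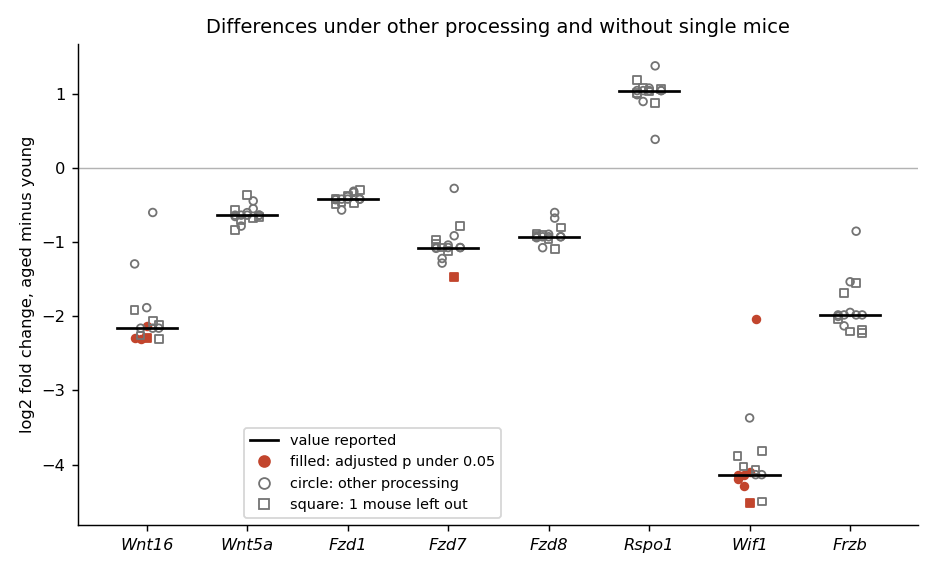
Log2 fold change of aged against young mice (y axis) for 8 genes (x axis), with a black line for the value reported, circles for other processing, squares for leaving out 1 mouse, and filled marks where the adjusted p was under 0.05. All marks stayed on the side of 0 of the value reported, from -0.60 to -2.31 for Wnt16 and from 0.39 to 1.38 for Rspo1. The groups of all 8 genes did not overlap, so leaving out 1 mouse could not turn the sign.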

How the data were processed

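Gene expression in the gastrocnemius of 3 young and 3 aged mice was measured on single-colour Agilent arrays, grouped by the sample titles. The deposited intensities are the processed signal of each spot, from which the software of the authors had subtracted the background and removed trends within the array, with no scaling from array to array. The series matrix repeats these intensities. The processing notes name Feature Extraction 9.5 and the file headers 11.0.1.1. The methods name no normalization or test for the arrays.

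An array held 62976 spots, 59305 of them other than controls. Spots marked as non-uniform or as population outliers (161 to 212 per array) were left out, and spots of a probe were averaged on the log2 scale. The 75th percentile over probes was subtracted, which lay at signals of 300, 258 and 209 in young and 310, 287 and 270 in aged mice. Probe accessions were matched without version to RefSeq (GRCm38.p6), which named 28325 of 55669 probes. No probe coordinates are given, since the array design used another build. Kept probes were detected on at least 3 of 6 arrays and saturated on none. A gene was represented by its brightest kept probe. The test was lmFit and eBayes of limma 3.58.1 under R 4.3.3. On simulated data with 20900 genes, 200 of them changed, the fit recovered 0%, 77.5% and 86.5% at log2 changes of 1, 2 and 3. The number of arrays limits the precision.

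Genes were chosen by symbol, and by rule the members with an unadjusted p under 0.05 or groups without overlap are given with every value. Wnt4, Rspo3, Fzd4 and Fzd9 are given with every value outside this rule. Of the pathway lists, the genes past the adjusted threshold and the 3 with the smallest p were named. The members, the lists and the markers were chosen with earlier results of these data known. The alternatives were 3 other scalings, normexp with an offset of 50 on the median spot signal, no filter, detection on all 6 arrays, a mean over probes, a mean-variance trend, a block for the slide row or for the replicate number, and omission of each mouse.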

Additional observations from a re-analysis of the deposited data

Results flagged for a closer look

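Of the 16 members left untested, 2 had a detected spot in aged mice and none in young mice. Fzd5 was detected on the array of aged mouse 1 alone, at -3.44 on the scaled log2 scale, and its second probe on no array. Rspo2 was detected on the array of aged mouse 3 alone, at -3.17. Each rests on 1 spot of 1 mouse, and the difference between the groups was not tested.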

How the results depend on the processing

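The count of members past the threshold was 1 and became 0 with normexp, without a filter, with detection on all 6 arrays (which leaves Wnt16 out), with the mean of the probes, with the mean-variance trend and with the slide row as a block, and also 0 with the replicate number as a block. It ranged from 0 to 2 when 1 mouse was left out, 2 (Wnt16 and Fzd7) without aged mouse 1 and 0 without any other mouse. For the other pathway genes the count was 1 and became 0 without a filter, with detection on all 6 arrays, with the row block and with the replicate block, and it ranged from 0 to 2 when 1 mouse was left out (2, Wif1 and Pygo1, without aged mouse 1). The count over all genes was 53. It was 8 without a filter, where 36710 genes were tested, 35 with detection on all 6 arrays, 5 with the replicate block, 199 without aged mouse 1, 1 without aged mouse 3 and 8 or 9 without any other mouse. The cause of these shifts was not tested. The count of members with an unadjusted p under 0.05 was 6 and lay between 4 and 8. Of 425 values of the named genes 19 lost the threshold, all of them of Wnt16 and Wif1, the only named genes past it in the main fit. These kept it in 4 of 15 and 7 of 15 alternatives. Fzd7 and Pygo1 gave the 2 values that gained it. The other 404 kept their side, mostly values of genes that were not past the threshold to begin with. None reversed, which for genes without overlap was fixed in advance where a mouse was left out. Same-numbered mice of both groups had correlations of -0.06, -0.27 and 0.03 in their deviations from the group means. Mice with different numbers had correlations from -0.21 to 0.35. With 3 mice per group such values cannot decide whether the numbers pair mice. Scaling to the median moved the median of all genes from -0.06 to -0.21 and that of the members from -0.21 to -0.36. With the row as a block, where aged mouse 1 alone is compared with the young mice, 12 members were higher and 13 lower. Detection limits the 16 untested members, Sfrp1 and Celsr3 in both groups, and in aged mice Wnt16, Wif1, Frzb, Lgr4, Pygo1, Ccn4, Lef1 and Ankrd6, of which at least 1 aged array gave no detected spot.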
